A study of Danio rerio with 8 samples.

Results

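The heart genes described here are 10 genes that mark zebrafish heart muscle or the regulators that specify it: myl7, cmlc1, vmhc, myh6, tnnt2a and nppa for cardiac muscle, and nkx2.5, gata4, gata5 and gata6 for transcription factors. They were chosen by symbol from an RNA-seq table of dissected trunk, because genes of this kind had been seen to follow the endings of the library titles. Of the 10 named genes, 9 had a row of measured values, out of 14581 transcripts in the table, and each of the 9 had a single row. The row of gata6 held only a repeated fill value, so gata6 was not analysed here.

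In the zebrafish embryo the heart forms from paired fields of lateral plate mesoderm that fuse below the head, next to the yolk, into a tube with an atrium and a ventricle. Gata4, Gata5 and Nkx2.5 act early in that programme, in lateral mesoderm and in part also in gut endoderm, whereas myosins, troponins and the natriuretic peptide are products of the contracting heart muscle cell. A contractile gene therefore marks the muscle itself, and the regulators mark a wider field.

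The series holds 8 libraries, 2 for each pairing of genotype and region, from embryos of 38 to 40 hours post fertilisation raised at 28 °C. All 8 samples were held in RNAlater at 4 °C for up to 2 days. Mutants, MUT, carried foxc1a p162/p162, and siblings, SIB, are given as foxc1a p162/+ in the sample labels, while the design text calls the controls wild type. Anterior tissue, AS, comprised somitic segments 1 to 6 and posterior tissue, PS, segments 7 to about 12, and both lacked heads and yolks, which the authors had cut away. Within each group 1 library has a title without a number, called replicate 1, and the other a title ending in 3, called replicate 3. The labels do not say what the ending stands for, nor that the libraries came from separate clutches, so p-values measure only the spread between these libraries.

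Values are RPKM, which sets the reads of a transcript against its length and against all mapped reads of its library. Read totals are not given in the sources used here, so no counting intervals could be computed. MUT_AS replicate 3 stood apart: 17.5% of transcripts were listed at 0 there, against 4.59 to 8.01% in the other 7 libraries, and its lowest percentile of values above 0 was 0.316 RPKM, against 0.00961 to 0.0506 RPKM. The foxc1a transcript was at 19.3 and 16.3 RPKM in MUT_AS, 18.1 and 16.3 RPKM in SIB_AS, 9.02 and 7.74 RPKM in MUT_PS, and 7.74 and 7.32 RPKM in SIB_PS, and the labels do not say what p162 changes in the gene, so the transcript level does not check the genotype.

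The cardiac muscle genes were high in 3 libraries, replicate 1 of MUT_AS, of SIB_AS and of MUT_PS, and near or at 0 in the other 5. Summed over the 6 genes, RPKM was 50.0 and 0 in MUT_AS, 35.03 and 0.821 in SIB_AS, 28.3 and 0.473 in MUT_PS, and 0.896 and 1.31 in SIB_PS, each time with replicate 1 first. The groups MUT_AS, SIB_AS and MUT_PS thus each held 1 high and 1 low library, and SIB_PS held 2 low ones. Even in the highest library the 6 genes made up 0.0089% of all RPKM. In bulk tissue, fewer heart cells and less of these RNAs per cell cannot be told apart.

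The regulatory light chain of cardiac myosin, myl7, is used as a marker of both heart chambers. It was at 15.4 and 0 RPKM in MUT_AS, 13.03 and 0.431 RPKM in SIB_AS, 9.59 and 0.051 RPKM in MUT_PS, and 0.122 and 0.533 RPKM in SIB_PS. Both libraries of SIB_PS lay below the higher library of each other group and beside the lower ones. The partner of myl7 on the myosin head, the essential light chain cmlc1, was at 16.6 and 0 RPKM in MUT_AS, 9.86 and 0 RPKM in SIB_AS, 9.40 and 0 RPKM in MUT_PS, and 0.314 and 0.222 RPKM in SIB_PS. It was listed at 0 in replicate 3 of every group except SIB_PS. Cardiac troponin T, tnnt2a, which anchors the calcium switch on the thin filament and is needed for the zebrafish heartbeat, was at 10.9 and 0 RPKM in MUT_AS, 5.94 and 0.0848 RPKM in SIB_AS, 5.33 and 0.302 RPKM in MUT_PS, and 0.180 and 0.187 RPKM in SIB_PS. For these 3 genes the order of the high libraries was the same, MUT_AS above SIB_AS above MUT_PS.

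The chamber genes were lower. The ventricular myosin heavy chain vmhc was at 4.45 and 0 RPKM in MUT_AS, 2.54 and 0.059 RPKM in SIB_AS, 1.12 and 0.0349 RPKM in MUT_PS, and 0.073 and 0.105 RPKM in SIB_PS. The atrial heavy chain myh6 was at 1.26 and 0 RPKM in MUT_AS, 0.712 and 0.0298 RPKM in SIB_AS, 1.29 and 0.053 RPKM in MUT_PS, and 0.111 and 0.0922 RPKM in SIB_PS. Both heavy chains were high in the same 3 libraries as the light chains, but myh6 was as high in MUT_PS replicate 1 as in MUT_AS replicate 1, where vmhc was not. The atrial natriuretic peptide gene nppa, a hormone gene of working heart muscle, was at 1.41 and 0 RPKM in MUT_AS, 2.95 and 0.217 RPKM in SIB_AS, 1.61 and 0.0321 RPKM in MUT_PS, and 0.0958 and 0.168 RPKM in SIB_PS. It was highest in SIB_AS replicate 1, unlike the other 5 cardiac muscle genes.

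**Figure D1:**
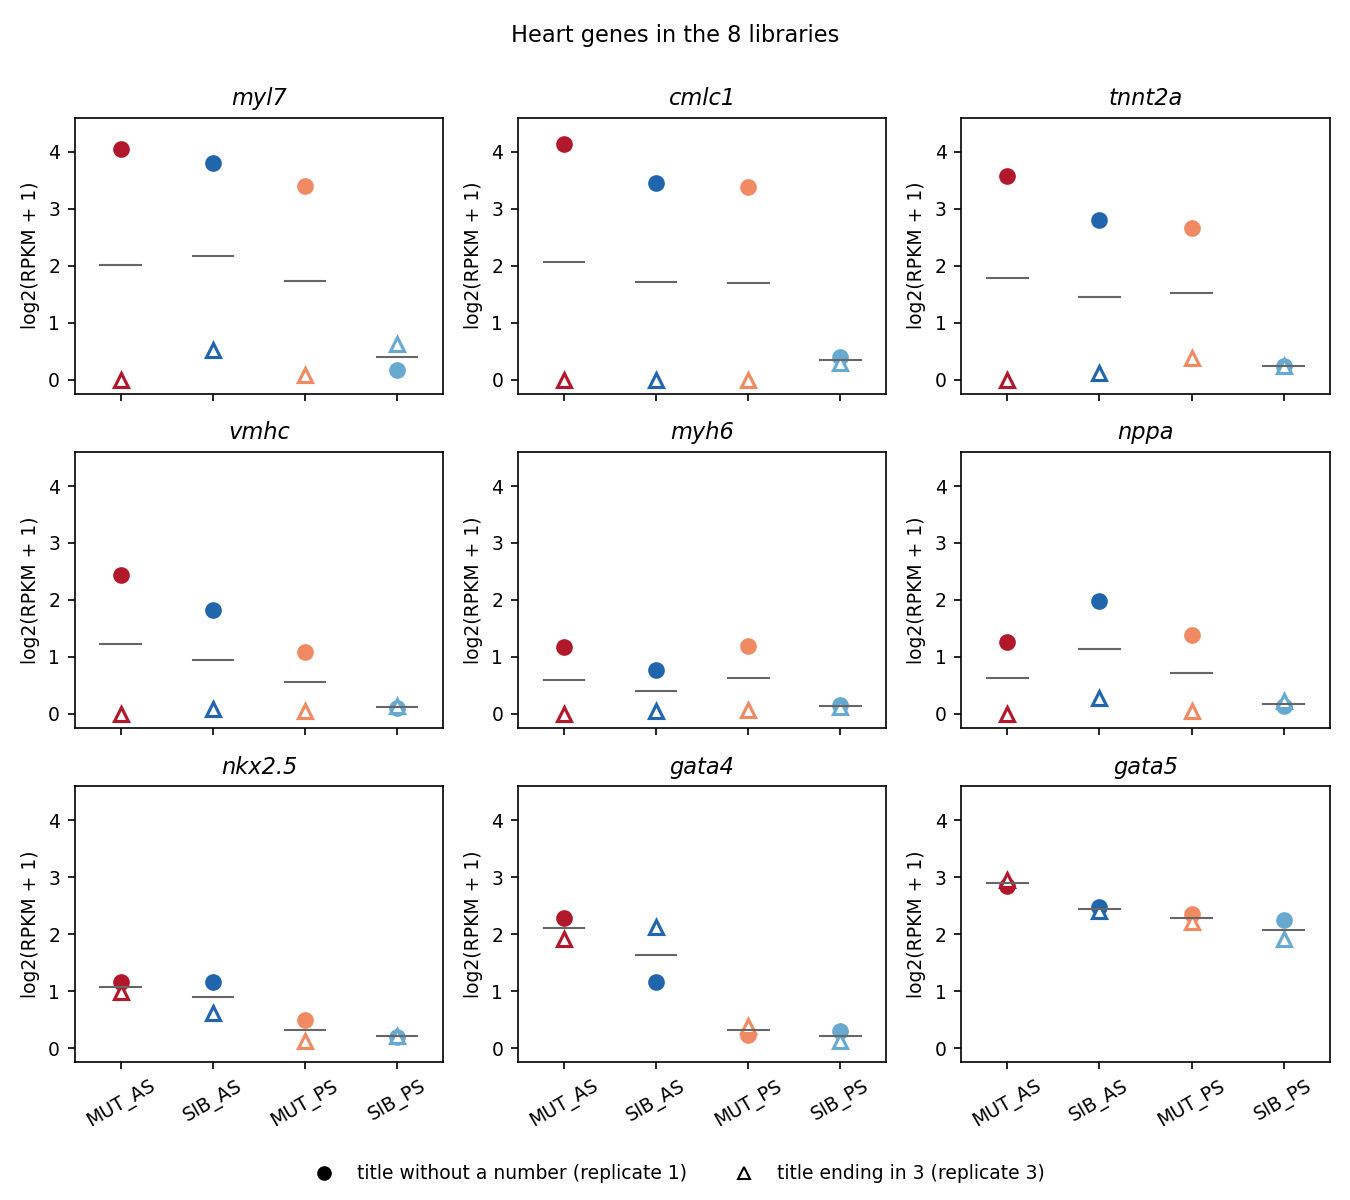
Level of each of the 9 heart genes in the 8 libraries. The vertical axis is log2(RPKM + 1), groups run along the horizontal axis, filled circles are replicate 1, open triangles are replicate 3 and grey lines are group means. The 6 cardiac muscle genes (first 2 rows of panels) are high only in replicate 1 of MUT_AS, SIB_AS and MUT_PS, whereas gata5 keeps its 2 libraries together in each group.

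In the 3 groups with a single high library, the means of myl7, cmlc1 and tnnt2a were smaller than their SD, and in SIB_PS the means were larger than it. For myl7 they were 7.72 ± 10.9 RPKM in MUT_AS, 6.73 ± 8.91 RPKM in SIB_AS, 4.82 ± 6.75 RPKM in MUT_PS and 0.328 ± 0.291 RPKM in SIB_PS (SD, n = 2 each). No neighbouring groups in this order differed beyond their spread. The same held for cmlc1, from 8.28 ± 11.7 RPKM in MUT_AS to 0.268 ± 0.0655 RPKM in SIB_PS, and for tnnt2a, from 5.46 ± 7.72 RPKM in MUT_AS to 0.183 ± 0.00445 RPKM in SIB_PS (SD, n = 2 each).

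The difference between replicate 1 and replicate 3 was taken within each group on the log2(RPKM + 1) scale. Since these genes were chosen for following the title ending, the values are a description, with no test. For myl7 the difference was 4.04 in MUT_AS, 3.29 in SIB_AS, 3.33 in MUT_PS and −0.45 in SIB_PS. For cmlc1 it was 4.13 in MUT_AS, 3.44 in SIB_AS, 3.38 in MUT_PS and 0.11 in SIB_PS. For tnnt2a it was 3.58 in MUT_AS, 2.68 in SIB_AS, 2.28 in MUT_PS and −0.01 in SIB_PS. The pattern therefore followed the ending in 3 groups and not in SIB_PS, where no member differed by more than 0.45 in either direction. The differences of vmhc, myh6 and nppa were smaller in the same 3 groups, between 0.73 and 2.45, and lay between −0.09 and 0.02 in SIB_PS.

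A difference above 1 was found for 6 of the 9 genes in MUT_AS, where 2.92% of 14230 transcripts above 0 in any library had one. In SIB_AS the count was 5 of 9 against 0.169% of transcripts, in MUT_PS 6 of 9 against 0.295%, and in SIB_PS 0 of 9 against 0.134%. Replicate 1 was above replicate 3 in all 4 groups for cmlc1 and myh6, where 17.7% of transcripts did so. For the same 2 genes all 4 libraries of replicate 1 lay above all 4 of replicate 3, as for 0.752% of transcripts. These shares stand beside counts that the choice of genes had fixed.

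**Figure D2:**
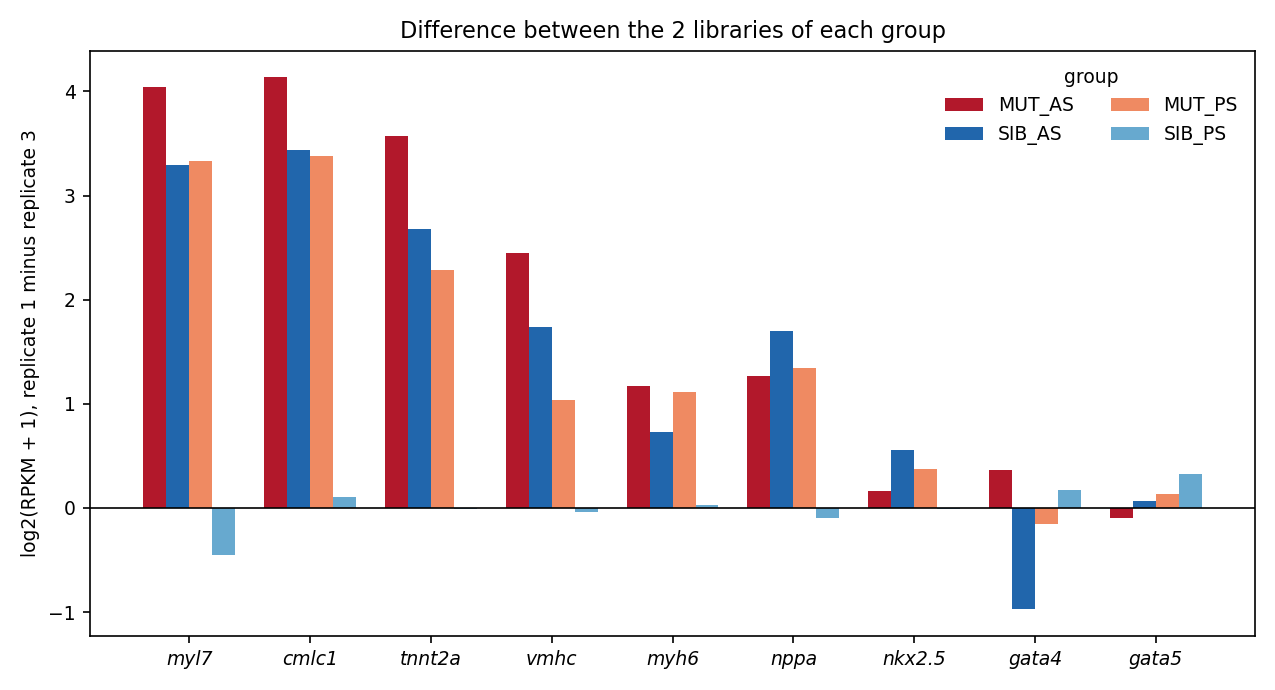
Difference between the 2 libraries of each group, replicate 1 minus replicate 3, in log2(RPKM + 1), for the 9 heart genes. Bars are coloured by group. The 6 cardiac muscle genes stand above 0.7 in MUT_AS, SIB_AS and MUT_PS and near 0 in SIB_PS, apart from myl7 at −0.45, while gata4 changes sign between groups.

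The zeros in MUT_AS replicate 3 were set beside transcripts of like average over the other libraries. Over the other 7 libraries myl7 averaged 5.60 RPKM and cmlc1 5.20 RPKM, and of 2390 transcripts averaging 5 to 10 RPKM there, 7 (0.293%) were listed at 0 in MUT_AS replicate 3. For tnnt2a, with 3.28 RPKM, the class of 2 to 5 RPKM had 1.24% at 0, and for vmhc, with 1.197 RPKM, the class of 1 to 2 RPKM had 7.04%. For nppa at 0.926 RPKM and myh6 at 0.506 RPKM the class of 0.5 to 1 RPKM had 26.1%, so transcripts with an average like theirs were often listed at 0 in that library. In SIB_AS replicate 3 and MUT_PS replicate 3 at most 0.876% of transcripts in any of these classes were at 0, and cmlc1 was at 0 in both. The averages of the cardiac muscle genes came mainly from the high libraries. In the other low libraries myl7 was between 0.051 and 0.533 RPKM and cmlc1 between 0 and 0.314 RPKM. The lowest percentile above 0 in MUT_AS replicate 3 was 0.316 RPKM. These shares therefore do not say how often transcripts that low would be listed at 0.

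Ratios between genes within a library compare levels per transcript length. Relative to myl7, cmlc1 stood at 1.07 in MUT_AS replicate 1, 0.757 in SIB_AS replicate 1 and 0.980 in MUT_PS replicate 1. The ratio of tnnt2a to myl7 was 0.708 in MUT_AS replicate 1, 0.456 in SIB_AS replicate 1 and 0.555 in MUT_PS replicate 1. Both ratios thus varied by less than a factor of 2 among the 3 high libraries. The ratio of ventricular vmhc to atrial myh6 varied more: it was 3.54 in MUT_AS replicate 1, 3.56 in SIB_AS replicate 1 and 0.873 in MUT_PS replicate 1. In SIB_PS, where both genes were low, it was 0.659 and 1.13. With 1 high library per group, the difference in chamber ratio between anterior and posterior tissue has no replicate check. The ratio of nppa to myl7 was 0.0913 in MUT_AS replicate 1, 0.226 in SIB_AS replicate 1 and 0.168 in MUT_PS replicate 1.

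Over the 8 libraries the 15 pairs of cardiac muscle genes correlated with r between 0.863 and 0.994 on the log2(RPKM + 1) scale. The libraries fall into high and low ones, so each r mainly restates that split, and it is given as a description. With the mean profile of the 6 genes, nkx2.5 had r = 0.62, gata5 r = 0.33 and gata4 r = 0.19 over the 8 libraries.

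The transcription factor genes were above 0 in all 8 libraries. The homeobox gene nkx2.5, an early marker of heart progenitors, was at 1.23 and 0.994 RPKM in MUT_AS, 1.25 and 0.533 RPKM in SIB_AS, 0.418 and 0.0948 RPKM in MUT_PS, and 0.151 and 0.160 RPKM in SIB_PS. The zinc finger gene gata4 was at 3.87 and 2.79 RPKM in MUT_AS, 1.23 and 3.37 RPKM in SIB_AS, 0.176 and 0.311 RPKM in MUT_PS, and 0.239 and 0.0972 RPKM in SIB_PS. Both genes were present in MUT_AS replicate 3, in which all 6 cardiac muscle genes were at 0, and in each genotype both anterior libraries lay above both posterior ones. A further zinc finger gene, gata5, which acts upstream of nkx2.5 in zebrafish heart and in endoderm, was at 6.23 and 6.71 RPKM in MUT_AS, 4.58 and 4.32 RPKM in SIB_AS, 4.11 and 3.65 RPKM in MUT_PS, and 3.74 and 2.78 RPKM in SIB_PS. It was the only one of the 9 genes above 2 RPKM in every library.

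Between regions, differences were tested with limma on log2(RPKM + 1) over the 10889 transcripts that averaged 1 RPKM or more, and called at a Benjamini-Hochberg adjusted p under 0.05. Of the 9 heart genes 6 passed that filter: myl7, cmlc1, vmhc, tnnt2a, gata4 and gata5. In MUT_AS against MUT_PS, 2 of the 6 rose and none fell, where 55% of all fitted transcripts were called, 44% higher and 10.9% lower. In SIB_AS against SIB_PS, 1 of the 6 rose and none fell, where 51.2% of all fitted transcripts were called, 41.6% higher and 9.62% lower. Anterior values were higher as a whole: the median difference over all transcripts was 0.41 in MUT and 0.40 in SIB. With libraries scaled to a common median, 2292 transcripts rose and 2540 fell in MUT, against 4796 and 1189 unscaled, and 1984 rose and 2347 fell in SIB, against 4531 and 1047 unscaled.

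The gene gata4 rose in both genotypes, by 1.79 in MUT_AS against MUT_PS (SE 0.29, limma adjusted p = 0.000798) and by 1.42 in SIB_AS against SIB_PS (SE 0.29, limma adjusted p = 0.00322). With median scaling the differences were 1.36 (adjusted p = 0.00657) and 1.004 (adjusted p = 0.0266). Over all alternatives the adjusted p lay between 0.000403 and 0.00899 in MUT and between 0.000511 and 0.0370 in SIB. With a pseudocount of 0.1 in place of 1 the differences were 3.33 in MUT and 3.06 in SIB, and without SIB_AS replicate 3 the SIB difference was 0.94. The call on gata5 depended on scaling and on how the spread was shared. It rose by 0.62 in MUT_AS against MUT_PS (SE 0.17, limma adjusted p = 0.0132). The difference was 0.18 with median scaling (adjusted p = 0.360), and gata5 also missed the threshold with a weight per group. Its adjusted p over all alternatives lay between 0.0112 and 0.360, and was 0.0909 without MUT_PS replicate 3. In SIB_AS against SIB_PS the difference of gata5 was 0.36 (SE 0.17, limma adjusted p = 0.104), and −0.05 with median scaling.

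Below the filter, nkx2.5 was tested in a fit of all 14230 transcripts above 0. There it was higher by 0.76 in MUT_AS than in MUT_PS (SE 0.20, limma adjusted p = 0.0195) and by 0.68 in SIB_AS than in SIB_PS (SE 0.20, limma adjusted p = 0.0323). In that fit 6017 of 14230 transcripts were called in MUT, 4789 of them higher, and 5261 in SIB, 4311 of them higher. The median difference over all of them was 0.24 in MUT and 0.23 in SIB. No fit with median scaling was run for nkx2.5. That scaling lowers every difference of AS against PS within a genotype by the same amount, so the nkx2.5 differences would be smaller. Both anterior libraries lay above both posterior ones for 3 genes in MUT, nkx2.5, gata4 and gata5, where 47.8% of transcripts did so. In SIB this held for 4 genes, the same 3 and nppa, where 55.7% of transcripts did so. For nppa the gap was narrow, between 0.217 RPKM in SIB_AS replicate 3 and 0.168 RPKM in SIB_PS replicate 3.

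For the cardiac muscle genes the tests between regions were wide. The difference of myl7 was 0.28 in MUT_AS against MUT_PS (SE 1.99, 95% interval −4.88 to 5.44) and 1.77 in SIB_AS against SIB_PS (SE 1.99, 95% interval −3.39 to 6.93). In replicate 1 alone the myl7 difference was 0.63 in MUT and 3.64 in SIB, and in replicate 3 alone it was −0.07 in MUT and −0.10 in SIB. In replicate 3 myl7 was at or near 0, with 0 against 0.051 RPKM in MUT and 0.431 against 0.533 RPKM in SIB. No direction can be read from values that low. The differences of cmlc1, tnnt2a and vmhc also missed the threshold, with standard errors between 0.93 and 2.04, and such intervals do not show that regions were alike.

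Between genotypes no heart gene was called. In MUT_AS against SIB_AS, 0 of 6 passed at an adjusted p under 0.05 in limma and 1, gata5, had an unadjusted p under 0.05, as had 1270 of all 10889 fitted transcripts, where 0.0459% of all fitted transcripts were called, 0.00918% higher and 0.0367% lower in MUT_AS. In MUT_PS against SIB_PS, 0 of 6 passed at either level, where 0 transcripts (0%) were called and 291 had an unadjusted p under 0.05. The interaction of genotype and region called 0 of 6 heart genes and 0 transcripts (0%), with 298 at an unadjusted p under 0.05 and no heart gene among them.

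Of the genotype differences, that of gata5 in anterior tissue had libraries that did not overlap, with both MUT_AS values above both SIB_AS values, as for 23.4% of transcripts. The difference was 0.46 (SE 0.17, limma adjusted p = 0.378), with 0.38 in replicate 1 and 0.54 in replicate 3. For gata4 the anterior difference was 0.46 (SE 0.29, limma adjusted p = 0.554), with 1.13 in replicate 1 and −0.20 in replicate 3. In posterior tissue tnnt2a was the only heart gene whose libraries did not overlap, above SIB_PS in both MUT_PS libraries, as for 22.3% of transcripts. The gap was narrow and near 0, between 0.302 RPKM in MUT_PS replicate 3 and 0.187 RPKM in SIB_PS replicate 3. The tnnt2a difference was 1.28 (SE 1.61, limma adjusted p = 0.99997), made up of 2.42 in replicate 1 and 0.13 in replicate 3.

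The posterior genotype difference of myl7 was 1.35 (SE 1.99, 95% interval −3.81 to 6.51) and that of cmlc1 1.35 (SE 2.04, 95% interval −3.94 to 6.63). They rested on 1 library: in replicate 1 the myl7 difference was 3.24 and in replicate 3 −0.54, and without MUT_PS replicate 1 the fitted values were −0.32 for myl7 and −0.34 for cmlc1. The anterior differences were −0.14 for myl7 (95% interval −5.30 to 5.02), 0.35 for cmlc1 (95% interval −4.94 to 5.63), 0.33 for tnnt2a (95% interval −3.84 to 4.51) and 0.27 for vmhc (95% interval −2.01 to 2.55). The intervals for the cardiac muscle genes allow changes of many fold in either direction, so a genotype effect on them was not detectable with these libraries.

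**Figure D3:**
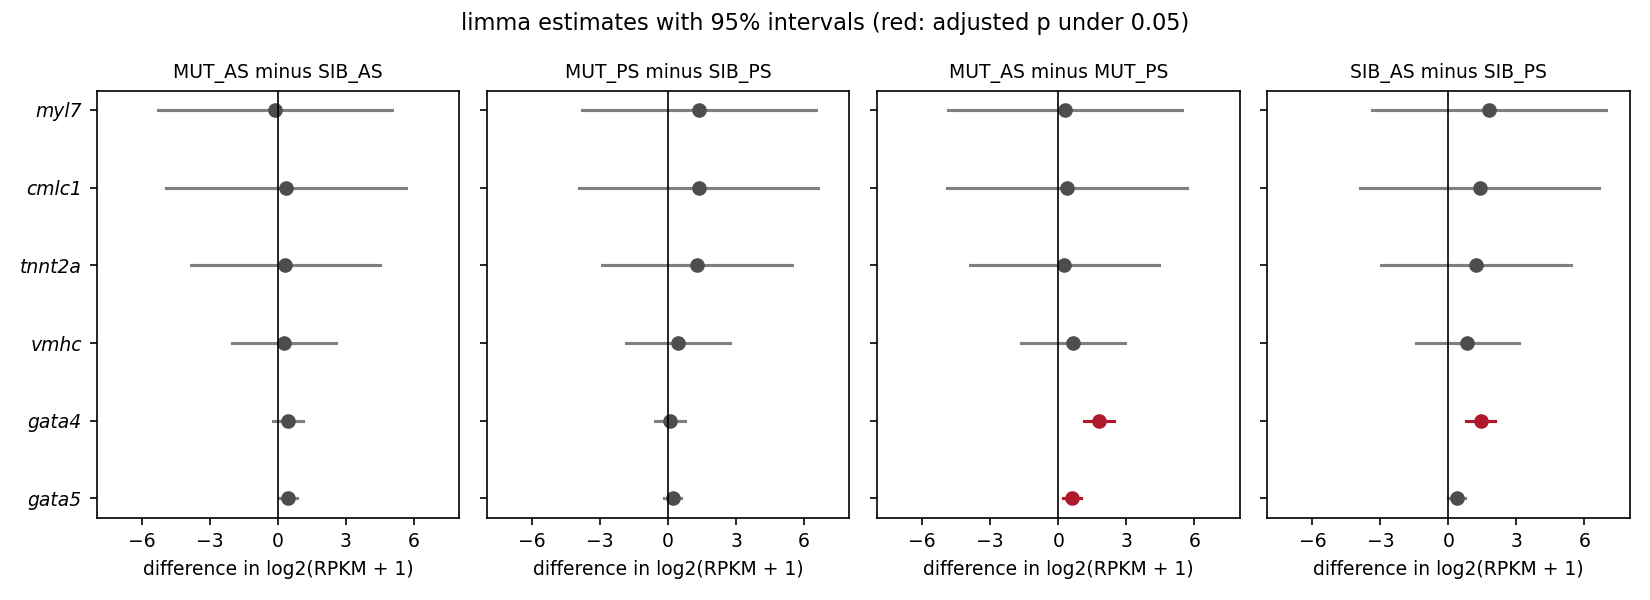
Differences of the 6 fitted heart genes in 4 comparisons, as limma estimates (points) with 95% intervals (lines), in log2(RPKM + 1). Only gata4 in both regional comparisons and gata5 in MUT_AS against MUT_PS are called (red), and the lines of myl7, cmlc1, tnnt2a and vmhc all cross 0.

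Other genes used by the cardiac muscle cell were taken from a list of 39, of which 26 had a row and 18 passed the filter. The list does not mark cardiac muscle alone. Genes such as myl10, actc1a and casq2 were far above the 6 cardiac muscle genes in all 8 libraries, also in SIB_PS. The troponin subunits were high in the same 3 libraries as the heart genes. Unlike the 6 cardiac muscle genes, tnni1b was also present in MUT_AS replicate 3. The troponin I gene tnni1b was at 10.9 and 2.64 RPKM in MUT_AS, 5.57 and 0.944 RPKM in SIB_AS, 4.74 and 0.224 RPKM in MUT_PS, and 0.267 and 0.264 RPKM in SIB_PS. The cardiac troponin C gene tnnc1a was at 5.29 and 0 RPKM in MUT_AS, 2.38 and 0.340 RPKM in SIB_AS, 1.33 and 0.363 RPKM in MUT_PS, and 0.433 and 0.265 RPKM in SIB_PS. Both had replicate 1 on top in all 4 groups, and the SIB_PS libraries lay close together.

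Among the 18 fitted genes, in a mean over the 4 groups, the small heat shock gene hspb7 had the next highest difference between replicates, 0.90. It was at 6.03 and 0.776 RPKM in MUT_AS, 5.27 and 3.08 RPKM in SIB_AS, 8.94 and 5.28 RPKM in MUT_PS, and 5.83 and 4.42 RPKM in SIB_PS. Unlike the 6 cardiac muscle genes, it was thus not near 0 in SIB_PS. Among the fitted genes the myosin chaperone gene unc45b followed with 0.28 and the myosin light chain gene myl10 with 0.25. The unc45b difference was 0.65 in MUT_AS and 0.80 in MUT_PS, but −0.19 in SIB_AS and −0.15 in SIB_PS. The lowest of the fitted genes were ldb3b (−0.14), casq2 (−0.14) and myom1a (−0.14), genes of the Z-disc, the calcium store and the M-band that striated muscle of the trunk also uses. Over the 18 fitted genes the median difference between replicates was 0.19 in MUT_AS, −0.02 in SIB_AS, 0.25 in MUT_PS and −0.05 in SIB_PS, beside 0.11, 0.01, 0.04 and 0.11 over all fitted transcripts in the same groups. Of the 8 genes below the filter, vmhcl (0.58), csrp3 (0.41) and slc8a1a (0.41) had higher mean differences than unc45b. The gene vmhcl, a close relative of vmhc with which reads could be shared, was at 1.57 and 0.137 RPKM in MUT_AS, 1.095 and 0.118 RPKM in SIB_AS, 0.323 and 0.113 RPKM in MUT_PS, and 0.130 and 0.138 RPKM in SIB_PS. The sodium-calcium exchanger gene slc8a1a was at 0.769 and 0 RPKM in MUT_AS, 0.386 and 0.0604 RPKM in SIB_AS, 0.403 and 0.0358 RPKM in MUT_PS, and 0.032 and 0.0422 RPKM in SIB_PS.

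**Figure D4:**
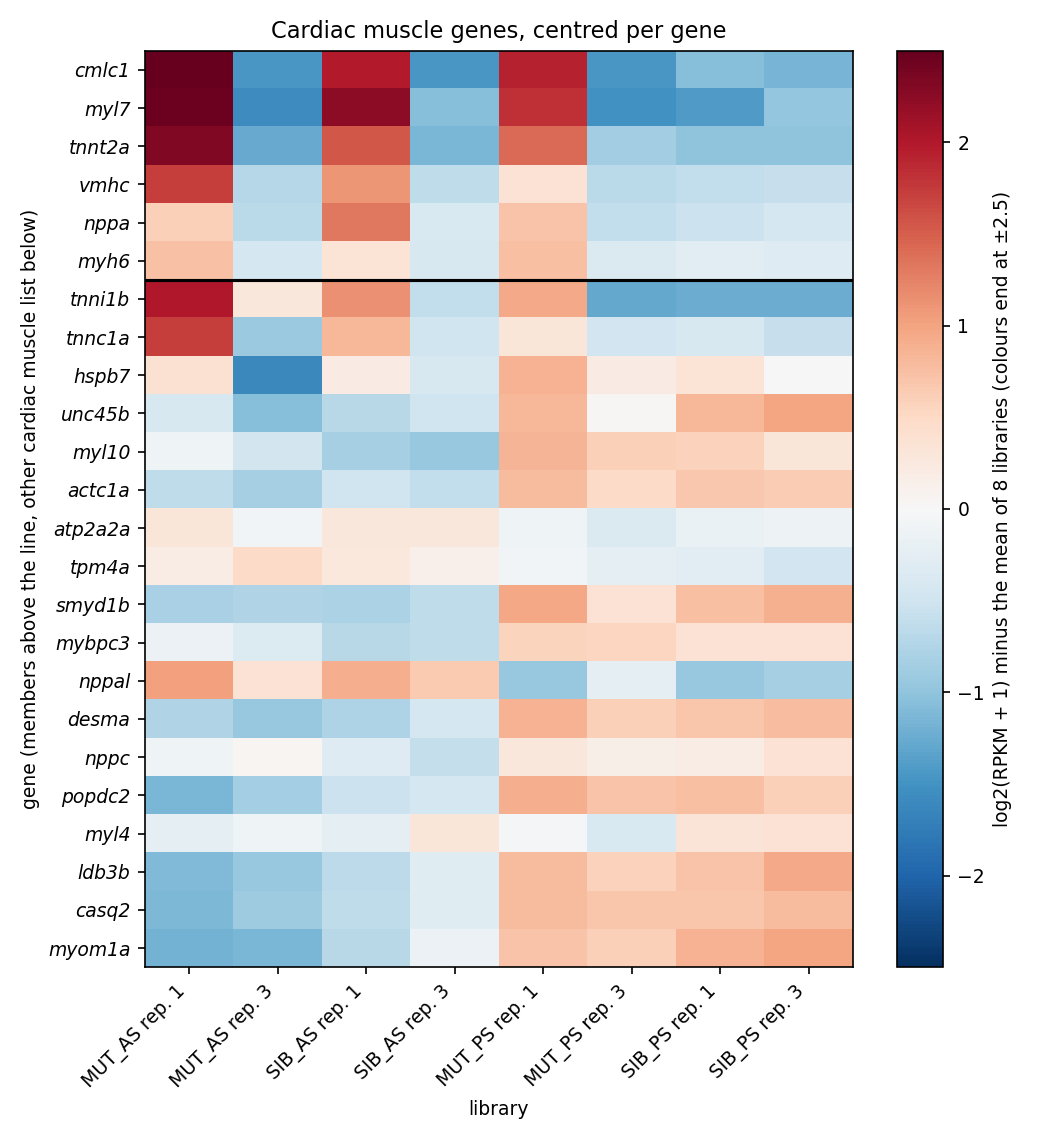
The 6 heart genes of cardiac muscle and the fitted genes of the list of 39 by library. Colours show log2(RPKM + 1) minus the mean of the gene over the 8 libraries (red above the mean, blue below). The list does not mark cardiac muscle alone. The 6 heart genes above the line, and tnni1b and tnnc1a below it, are red in replicate 1 of MUT_AS, SIB_AS and MUT_PS, while genes such as ldb3b, casq2 and myom1a are red in all 4 posterior libraries. The gene tnni1b is also slightly above its mean in MUT_AS replicate 3.

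Between regions most of the called genes of that list were lower in anterior tissue. In MUT_AS against MUT_PS, 2 of 18 rose and 10 fell, with a median of −1.09. Over all fitted transcripts 44% were higher and 10.9% lower, with a median of 0.41. In SIB_AS against SIB_PS, 2 of 18 rose and 11 fell, with a median of −1.10. Over all fitted transcripts 41.6% were higher and 9.62% lower there, with a median of 0.40. With median scaling 1 rose and 12 fell in each genotype. Of all 10889 fitted transcripts, 2292 rose and 2540 fell with that scaling in MUT, and 1984 rose and 2347 fell in SIB. Unscaled, the genes of the list that fell in both genotypes were popdc2, myom1a, casq2, ldb3b, actc1a, smyd1b, desma, unc45b, myl10 and mybpc3, and in SIB also nppc. The fall of casq2, a calcium-binding protein of the muscle calcium store, was 1.73 on the log2 scale in MUT (limma adjusted p = 0.000119), with 97.7 and 115 RPKM in MUT_AS against 367 and 342 RPKM in MUT_PS. Of 23 fast skeletal muscle genes, 22 fell in MUT_AS against MUT_PS, all but tnni2b.2, and 21 fell and tnni2b.2 rose in SIB_AS against SIB_PS. These counts stand beside the same unscaled shares over all fitted transcripts. Summed over these 23 genes, RPKM was 30794 and 33265 in MUT_AS, 43198 and 56324 in SIB_AS, 99689 and 102410 in MUT_PS, and 106004 and 126052 in SIB_PS, and the part of skeletal muscle in these falls was not tested. The 2 that rose were the tropomyosin gene tpm4a, by 0.49 in MUT and 0.56 in SIB, and the natriuretic peptide relative nppal, by 1.28 in MUT and 1.68 in SIB. With median scaling tpm4a was not called in either genotype. Between genotypes limma called 0 of 18 genes of the list in either region. An unadjusted p under 0.05 was found for 7 in MUT_AS against SIB_AS and 1 in MUT_PS against SIB_PS. Of all 10889 fitted transcripts, 1270 and 291 had such a p in these comparisons. In MUT_AS against SIB_AS, 6 of the 18 had a higher mean in MUT_AS, with a median difference of −0.15. Of the 23 fast skeletal muscle genes, 21 had an unadjusted p under 0.05 there in limma. None of these 23 had a higher mean in MUT_AS, and their median was −0.62. The part of skeletal muscle in the values of the list was not tested. Without MUT_AS replicate 1 the median anterior difference of the 18 genes was −0.34, beside 0.02 over all transcripts. Without MUT_AS replicate 3 it was 0.01, beside 0.15 over all transcripts.

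The second list, of 36 regulators of the heart fields and chambers, had 34 genes with a row and 29 fitted. In MUT_AS against MUT_PS 16 of them rose and 2 fell, with a median difference of 0.75, beside 44% higher, 10.9% lower and a median of 0.41 over all fitted transcripts. In SIB_AS against SIB_PS 17 of 29 rose and 3 fell, with a median of 0.83, beside 41.6% higher, 9.62% lower and a median of 0.40 over all fitted transcripts. With median scaling 13 rose and 7 fell in MUT, and 12 rose and 4 fell in SIB. Of all 10889 fitted transcripts, 2292 rose and 2540 fell with that scaling in MUT, and 1984 rose and 2347 fell in SIB. The T-box gene tbx5a, needed for heart and pectoral fin, was at 3.23 and 3.55 RPKM in MUT_AS against 0 and 0.041 RPKM in MUT_PS, and at 1.82 and 2.35 RPKM in SIB_AS against 0.110 and 0.190 RPKM in SIB_PS. It rose by 2.10 in MUT (limma adjusted p = 9.47e-05) and by 1.42 in SIB (limma adjusted p = 0.000437), and remained called with median scaling.

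The pharyngeal and outflow regulator tbx1 rose by 3.26 in MUT (limma adjusted p = 0.000144) and by 2.76 in SIB (limma adjusted p = 0.000401). The chamber regulator tbx20 rose by 1.14 in MUT and 1.68 in SIB, tbx2b by 2.09 in MUT and 1.82 in SIB, and isl1 by 1.24 in MUT and 1.34 in SIB. The others that rose in both genotypes were tbx2a, irx1a, irx1b, isl2a, nr2f1a, nr2f2, hand2, prdm1a, rarab, zfpm1 and nkx2.7, and isl2b rose in SIB. With median scaling hand2, isl2a and nkx2.7 were not called in either genotype, and zfpm1 and isl2b were not called in SIB. The genes that fell were mef2ca and mef2cb in both genotypes and srfb in SIB, regulators that skeletal muscle also uses. Between genotypes limma called 0 of 29 regulators in either region. An unadjusted p under 0.05 was found for 2 in MUT_AS against SIB_AS and 0 in MUT_PS against SIB_PS. Of all 10889 fitted transcripts, 1270 and 291 had such a p in these comparisons. Without MUT_AS replicate 1 the median anterior difference of the regulators was −0.10, beside 0.02 over all transcripts. Without MUT_AS replicate 3 it was 0.18, beside 0.15 over all transcripts. Many of these genes also act in pharyngeal arches, fin buds and nerve cells, and of the list 3 genes, hand2, tbx5a and tbx1, stand in the list of arch and fin genes as well.

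Among the 29 fitted regulators, nkx2.7, a relative of nkx2.5 that acts with it in zebrafish heart, had the highest mean difference between replicates. It was at 3.88 and 0.705 RPKM in MUT_AS, 2.65 and 1.97 RPKM in SIB_AS, 0.237 and 0.179 RPKM in MUT_PS, and 0.294 and 0.0528 RPKM in SIB_PS. The mean difference of 0.55 came mainly from MUT_AS, at 1.52, with 0.30 in SIB_AS, 0.07 in MUT_PS and 0.30 in SIB_PS. The next were irx1b (0.40), isl2b (0.33), irx1a (0.33) and tbx1 (0.22), and the lowest were srfa (−0.17), srfb (−0.18) and erbb2 (−0.29). In MUT_PS replicate 1, high for heart muscle genes, nkx2.7 stood beside the other posterior libraries.

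Summed markers of other heart tissues had no such gap between replicates. Summed over 16 endocardial and valve genes, RPKM was 125 and 125 in MUT_AS, 108 and 112 in SIB_AS, 84.4 and 85.9 in MUT_PS, and 74.2 and 82.0 in SIB_PS. Over 10 epicardial and pericardial genes the sums were 254 and 266 RPKM in MUT_AS, 176 and 233 RPKM in SIB_AS, 223 and 266 RPKM in MUT_PS, and 192 and 220 RPKM in SIB_PS. Over 19 endothelial genes they were 131 and 127 RPKM in MUT_AS, 126 and 112 RPKM in SIB_AS, 129 and 122 RPKM in MUT_PS, and 95.2 and 84.6 RPKM in SIB_PS. The widest gap between the sums of a group in these 3 lists was that of the epicardial genes in SIB_AS, with replicate 3 on top. The epicardial sums rested mainly on hapln1a, at 109 and 112 RPKM in MUT_AS, and anxa2a, at 79.9 and 93.5 RPKM there. Single genes could differ in either direction. In MUT_AS wt1a was at 6.38 and 2.81 RPKM, tcf21 at 2.65 and 6.27 RPKM and klf2b at 3.85 and 9.53 RPKM. Many genes of these 3 lists are also used outside the heart, in trunk vessels, coelomic lining and connective tissue. The sums therefore cannot say whether the heart part of these tissues varied with the heart muscle genes. Of 14 fitted endocardial genes 7 rose in both genotypes in AS against PS (foxc1a, foxc1b, notch1b, heg1, smad6b, krit1 and ccm2), dll4 rose in SIB and vcanb fell in MUT. Over all fitted transcripts 44% were higher and 10.9% lower in MUT, and 41.6% were higher and 9.62% lower in SIB, and the counts for the epicardial and endothelial genes stand beside the same shares. With median scaling 3 of the endocardial genes rose and 2 fell in MUT, and 3 rose and 4 fell in SIB. Of all 10889 fitted transcripts, 2292 rose and 2540 fell with that scaling in MUT, and 1984 rose and 2347 fell in SIB. The scaled counts of the epicardial and endothelial genes stand beside the same numbers. Of 8 fitted epicardial genes, 6 rose in MUT (wt1a, wt1b, tbx18, tcf21, aldh1a2 and jam2b), and the same 6 rose and anxa2a fell in SIB. With median scaling 5 rose and 1 fell in MUT, and 4 rose and 1 fell in SIB.

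Of 15 fitted endothelial genes, sox7 and fli1a rose in both genotypes, egfl7 rose and plvapb fell in MUT, and cldn5b, clec14a, fli1b, kdrl and dll4 rose in SIB. With median scaling 0 rose and 3 fell in MUT, and 2 rose and 2 fell in SIB.

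The summed level of red blood cell genes was also higher in replicate 1 within each group. Summed over 15 erythroid genes, RPKM was 3587 and 1063 in MUT_AS, 1195 and 448 in SIB_AS, 5035 and 1657 in MUT_PS, and 959 and 741 in SIB_PS. Replicate 1 had the higher sum in all 4 groups, and least so in SIB_PS. Across groups the order differed from that of the heart muscle genes: MUT_PS replicate 3, low for heart muscle, had a higher erythroid sum than SIB_AS replicate 1, high for heart muscle. The embryonic alpha globin gene hbae3 was at 2106 and 598 RPKM in MUT_AS, 704 and 249 RPKM in SIB_AS, 2943 and 895 RPKM in MUT_PS, and 521 and 431 RPKM in SIB_PS. Over the 14 fitted genes the median difference between replicates was 1.17 in MUT_AS, 0.78 in SIB_AS, 1.32 in MUT_PS and 0.20 in SIB_PS, and 10 of 14 had replicate 1 on top in all 4 groups, beside 2240 of 10889 over all fitted transcripts. The erythroid genes were above 0 in every library, except gata1a and klf1, listed at 0 in MUT_AS replicate 3. The part of blood content in the heart gene pattern was not tested. In the lists of fast and slow skeletal muscle, of arch and fin, and of liver, gut and pancreas genes, the median difference between replicates lay between −0.34 and 0.38 in the 4 groups.

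Between genotypes the 14 fitted erythroid genes all had a higher mean in MUT, with a median difference of 0.97 in AS and 1.38 in PS. Over all 10889 fitted transcripts, 6760 had a higher mean in MUT in AS and 6951 in PS, with medians of 0.08 and 0.06. The anterior erythroid sums overlapped, with 1063 RPKM in MUT_AS replicate 3 against 1195 RPKM in SIB_AS replicate 1, and the posterior sums did not. All 14 genes were read from the same libraries, so they are not separate observations. However, limma called 0 of 14 in either region. An unadjusted p under 0.05 was found for 2 in MUT_AS against SIB_AS and 5 in MUT_PS against SIB_PS. Of all 10889 fitted transcripts, 1270 and 291 had such a p in these comparisons. Between regions 0 of the 14 rose and 1 fell in each genotype. Over all fitted transcripts 44% were higher and 10.9% lower in MUT, and 41.6% higher and 9.62% lower in SIB. The 1 gene was sptb, an erythrocyte spectrin gene, which fell by 1.098 on the log2 scale in MUT_AS against MUT_PS (limma adjusted p = 0.00328) and by 1.13 in SIB_AS against SIB_PS (limma adjusted p = 0.00342). With median scaling 0 rose and 2 fell in each genotype, where 2540 of 10889 transcripts fell in MUT and 2347 in SIB. Without MUT_AS replicate 1 the anterior median between genotypes was 0.40 with 12 of 14 higher, beside 0.02 with 5684 of 10889 higher over all transcripts. Without MUT_AS replicate 3 it was 1.46 with 14 of 14 higher, beside 0.15 with 7431 of 10889 higher.

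**Figure D5:**
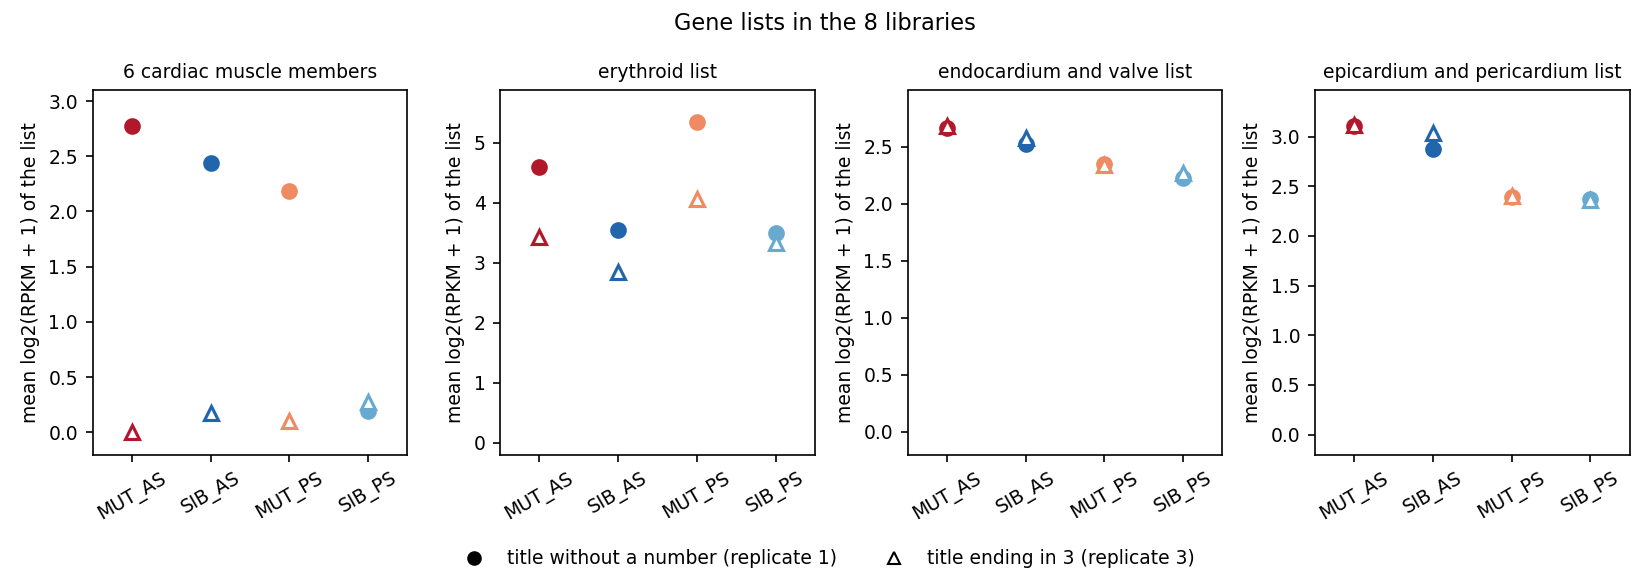
Mean log2(RPKM + 1) of 4 gene lists in the 8 libraries, with groups along the horizontal axis, filled circles for replicate 1 and open triangles for replicate 3. The libraries of a group lie far apart for the 6 cardiac muscle genes in MUT_AS, SIB_AS and MUT_PS, less far for the erythroid genes, and close together for the endocardial and epicardial lists.

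The transcripts whose pattern was most like the mean profile of the 6 cardiac muscle genes were sought among 1648 named transcripts averaging 1 RPKM or more, with an SD over the libraries of at least 0.606 in log2(RPKM + 1). By Pearson r over the 8 libraries the first 10 were tnnc1a (0.94), tnni1b (0.89), cenph (0.78), st3gal4 (0.77), neil3 (0.76), mxd3 (0.75), hbae3 (0.73), nle1 (0.72), tyms (0.72) and gata1a (0.72). Both at the top are the troponin genes described above, with a gap to the rest. Without MUT_AS replicate 3 the order began with tnni1b (0.98) and tnnc1a (0.93), and 3 of the first 10 were shared between the lists, these 2 and neil3. The libraries share the 3 high values, so r is a description of likeness only.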

How the data were processed

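Poly(A) RNA of 8 zebrafish trunk libraries was sequenced as stranded paired-end reads. Per the design text, the authors aligned reads with RUM to Zv9 (danRer7) and assigned each read to 1 transcript; no RUM version was given in the sources used here. The authors deposited log2(RPKM + 1) values per RefSeq transcript, as the file headers name them. The 4 deposited ratio columns, called fold change by the authors, were used only to find fill rows. RPKM was recovered as 2 to the power of the value, minus 1. Of 14809 rows, 228 fill rows were dropped. RefSeq accessions (13710 matched) served for symbols only, as in the cases of nppal, nppc and klf1.

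The members and lists were chosen with earlier results of these data known. Named genes are the 10 members, of the other lists those called in a comparison (for the lists outside the heart, chiefly counts are given), of the 2 heart lists the 5 highest and 3 lowest by mean replicate difference among genes that passed the filter, and the 10 most like the muscle profile. The genes vmhcl, csrp3, slc8a1a, hapln1a and klf2b were picked after their values were seen, as were the printed levels of wt1a, tcf21 and anxa2a.

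The design allowed for counts; the table holds log2 values, so limma 3.58.1 (R 4.3.3, statmod 1.5.0) was used with 1 mean per group, all 8 libraries sharing 1 spread, with trend and robust moderation, and Benjamini-Hochberg adjustment over the 10889 transcripts that averaged 1 RPKM or more. The method was tested on simulated data, with changes planted only in transcripts of higher level than the heart genes. That test therefore does not cover the heart genes. Log2 differences on this scale understate ratios of low values. Genes low in posterior tissue, such as gata4, tbx5a and nppal, passed the filter only through their anterior libraries. The groups did not have equal spread. Over the fitted transcripts the median SD between replicates was 0.222 in MUT_AS, 0.105 in SIB_AS, 0.113 in MUT_PS and 0.124 in SIB_PS. The shared spread can thus be too small for MUT_AS and too large for the other groups. Alternatives were a pseudocount of 0.1, no filter, a filter at 5 RPKM, median scaling, a replicate block, a weight per group, plain moderation, only the 2 groups compared, and leaving out each library. No heart gene averaged 5 RPKM, so the filter at 5 RPKM tested none of them. Lists of other tissues were summarised by counts and medians; their values with median scaling or without a MUT_AS library were added after the data were seen. No genome or sequence was at hand, so no sequences or coordinates are given.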

Additional observations from a re-analysis of the deposited data

How the results depend on the processing

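Counts of called heart genes between genotypes and for the interaction were 0 and did not move with the setting. They had little room to move, since the main fit called 5, 0 and 0 of all 10889 transcripts there. The regional counts did move. With no filter, which tested 9 heart genes in place of 6, the count in MUT_AS against MUT_PS became 3. In MUT_AS against MUT_PS the count of 2 became 1 with median scaling and 1 with a weight per group, and lay between 1 and 2 when a library was left out, the 1 being without MUT_PS replicate 3; in SIB_AS against SIB_PS the count of 1 became 2 with no filter and 2 with a weight per group. The genes with replicate 1 on top in all 4 groups went to 1 from 2 with median scaling. The gata5 difference in SIB_AS against SIB_PS passed the threshold with a weight per group (0.36, limma adjusted p = 0.0470), and in MUT_AS against MUT_PS missed it (0.62, limma adjusted p = 0.0503). Directions reversed for the muscle genes. For MUT_AS against MUT_PS, median scaling gave −0.15 for myl7, −0.0524 for cmlc1 and −0.16 for tnnt2a, and a pseudocount of 0.1 gave −0.49 for tnnt2a. That pseudocount gave −0.0091 for tnnt2a in MUT_AS against SIB_AS, and median scaling gave −0.0538 for gata5 in SIB_AS against SIB_PS. Median scaling subtracts 1 value per library, so within a comparison it moves every gene by the same amount. The cause of the reversals with the pseudocount was not tested. Leaving out single libraries gave, for MUT_AS against SIB_AS, −2.16 to 1.88 for myl7, −1.72 to 2.41 for cmlc1, −1.46 to 2.12 for tnnt2a, −0.95 to 1.49 for vmhc and −0.0237 to 0.95 for gata4. For MUT_PS against SIB_PS it gave −0.32 to 3.01 for myl7, −0.34 to 3.04 for cmlc1 and −0.0731 to 0.96 for vmhc. For MUT_AS against MUT_PS it gave −1.738 to 2.3002 for myl7, −1.69 to 2.45 for cmlc1, −1.52 to 2.05 for tnnt2a and −0.57 to 1.88 for vmhc. For SIB_AS against SIB_PS it gave −0.34 to 3.10 for cmlc1, −0.13 to 2.55 for tnnt2a and −0.0399 to 1.70 for vmhc. For the interaction it gave −3.51 to 0.53 for myl7, −3.07 to 1.07 for cmlc1, −2.73 to 0.84 for tnnt2a, −1.40 to 1.05 for vmhc and −0.11 to 0.86 for gata4. A group left with 1 library was assumed to vary like the others. Over all transcripts, MUT_AS against SIB_AS had 5 calls, 1105 without MUT_AS replicate 1 and 78 without MUT_AS replicate 3. With the title ending as a replicate block the heart genes called stayed at 0, 0, 2, 1 and 0 in the 5 comparisons, and calls over all transcripts were 7 in MUT_AS against SIB_AS, 0 in MUT_PS against SIB_PS, 6330 in MUT_AS against MUT_PS, 5976 in SIB_AS against SIB_PS and 0 for the interaction; deviations of same-numbered libraries correlated with r between −0.09 and 0.52, above 0.1 in 5 of 6 pairs of groups, but each comparison holds 2 pairs and the labels do not say that the ending marks a shared source, so no pairing was used. Of the 10 transcripts most like the muscle profile, 3 were shared without MUT_AS replicate 3. Each heart gene had 1 row, so the choice of row changed nothing. With 2 libraries per group and low values, small changes of the heart genes are beyond these data.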
